A study of Homo sapiens with 15 samples.

Results

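The Krüppel-like factors (KLF) are a family of transcription factors, and the 10 members described here were KLF2, KLF3, KLF4, KLF5, KLF6, KLF7, KLF9, KLF10, KLF11 and KLF13, out of 18417 gene symbols on the array. They were taken by name, each through the array platform's annotation of its transcript clusters, the probe sets that summarise 1 gene. Where a gene had several clusters, the one with the highest mean was used, which applied to KLF13 alone, with 2 clusters. All 10 passed the filter on dim genes, together with 16872 genes in all.

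RNA of MH7A, an established human synovial cell line, was hybridised to 15 arrays (Affymetrix Human Gene 1.0 ST). Each of 3 experiments gave 1 array of each of 5 conditions: IL-1β with glucosamine (GlcN), IL-1β with GlcN and alloxan, IL-1β with alloxan, IL-1β alone, and resting cells without any of these. IL-1β, an inflammatory cytokine, was given at 15 pg/ml for 13 h, and GlcN at 5 mM beginning 2.5 h before it. Alloxan, which the labels name as an inhibitor of the enzyme that attaches O-GlcNAc to proteins, was first applied for 30 min (5 mM) and kept at 2 mM afterwards. The design asks what GlcN does to IL-1β-stimulated cells and how much of that is altered by alloxan. MH7A is a single immortalised line, so that the experiments are not separate donors.

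Values are the authors' log2 signals. The 3 experiments lay at different overall levels, the array medians being 6.18 to 6.21 (experiment 1), 7.14 to 7.19 (experiment 2) and 7.49 to 7.54 (experiment 3), so that each difference was taken within an experiment and its SD is that of 3 such differences. A gene is called where limma with the experiment as a block gave an adjusted p under 0.05 over the 16872 genes. Without the block the spread between experiments entered the error, and on the deposited values none of the 10 members passed in any comparison, by limma at an adjusted or an unadjusted p under 0.05 or by the methods' t-test between 2 conditions. The study ran that test on further normalized values, so that its own result is not repeated here. After quantile normalization of the 15 arrays, an alternative chosen after seeing the data, limma without the block called KLF10 with GlcN (adjusted p = 0.0128) and with GlcN and alloxan (adjusted p = 0.0281), each against IL-1β alone. All other calls of members were lost without the block under either normalization. Blocked fits of only the conditions compared kept 1 member call, that of KLF10 with GlcN and alloxan against IL-1β alone. Of the cell type markers, 6 of 10 fibroblast genes were above the median gene on every array, and PDPN, CDH11 and PRG4 were below it on every array. None of 4 endothelial, 3 T cell and 1 measured B cell marker exceeded the median gene on all arrays, whereas the macrophage marker CD68 and the keratins KRT8 and KRT18 did. A culture was measured as a whole, so that less RNA in every cell and fewer cells holding the transcript cannot be told apart.

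KLF proteins share a zinc finger region at their C-terminal end, which binds CACCC elements and related GC-rich sequences, and differ in the parts that recruit other proteins. KLF3 recruits the corepressor CtBP. KLF9, KLF10, KLF11 and KLF13 recruit the corepressor SIN3A, and KLF10 and KLF11 were identified as genes induced early by TGF-β. KLF2, KLF4, KLF5, KLF6 and KLF7 are known largely as activators, often acting with histone acetyltransferases, although KLF4 also represses. In connective tissue and vessels, KLF2 and KLF4 are known as restraints on inflammatory gene expression, and KLF5 as a factor of proliferating cells.

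Promoter sequence is shown for 3 members that changed, KLF11 and KLF13 because their levels moved alike and KLF5 because it went the other way with GlcN. Each is a RefSeq window of 300 bases on GRCh38.p14 that covers a gene start, read from the plus strand, and capitals mark the KLF element CACCC or its complement GGGTG. They lie at chr2:10043971-10044270, chr15:31326585-31326884 and chr13:73058755-73059054.
KLF11: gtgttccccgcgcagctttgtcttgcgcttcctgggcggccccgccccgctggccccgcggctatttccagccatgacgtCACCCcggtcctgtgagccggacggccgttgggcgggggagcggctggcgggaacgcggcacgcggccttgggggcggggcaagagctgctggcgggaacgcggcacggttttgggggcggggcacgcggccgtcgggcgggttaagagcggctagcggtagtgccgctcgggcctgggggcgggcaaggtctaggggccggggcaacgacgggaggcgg
KLF13: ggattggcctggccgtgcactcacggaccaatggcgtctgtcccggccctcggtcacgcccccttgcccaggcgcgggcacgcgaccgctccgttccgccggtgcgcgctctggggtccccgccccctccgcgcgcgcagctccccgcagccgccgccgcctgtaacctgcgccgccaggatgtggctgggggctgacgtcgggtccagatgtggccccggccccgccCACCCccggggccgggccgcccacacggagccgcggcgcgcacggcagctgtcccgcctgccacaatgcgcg
KLF5: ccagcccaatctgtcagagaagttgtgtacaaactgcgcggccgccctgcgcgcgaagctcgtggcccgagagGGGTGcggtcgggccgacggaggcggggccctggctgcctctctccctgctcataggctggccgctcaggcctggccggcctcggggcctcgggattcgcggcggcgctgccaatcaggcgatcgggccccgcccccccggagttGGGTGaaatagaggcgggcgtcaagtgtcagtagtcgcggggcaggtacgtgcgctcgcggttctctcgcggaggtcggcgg
The windows shown of KLF11 and KLF13 held 1 element each and that of KLF5 held 2. KLF11 and KLF5 each had another window, not shown, which held 0 elements for KLF11 and 1 for KLF5. RefSeq windows were matched for 8 of the 10 members, 13 windows in all, and 7 of them (53.8%) held CACCC on either strand, against 59.9% of all 35116 windows. The GC box GGGCGG, which KLF and SP proteins also bind, was present in 8 of 13 (61.5%), against 45.0% of all windows, and its matches can overlap those of CACCC. It occurred 7 times in the KLF11 window shown, 3 times in that of KLF13 and 2 times in that of KLF5. In the windows not shown it occurred 2 times for KLF11 and 0 times for KLF5. The AP-1 element TGACTCA was in 0 of 13, against 4.95%, and the CRE core TGACG in 4 of 13 (30.8%), against 24.6%. These are matches of letters and do not show binding.

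With GlcN added to IL-1β, 4 of the 10 members changed, 2 lower (KLF10, KLF5) and 2 higher (KLF13, KLF2). In the same comparison 11.9% of all genes tested were called, 6.62% lower and 5.29% higher. That balance turned after quantile normalization (1101 genes higher, 998 lower) and without experiment 3 (490 higher, 404 lower). KLF10 had the widest range of its condition means among the members, 0.976 on the log2 scale, which was at percentile 98.4 of the genes tested. The range of KLF5 was at percentile 90.3, that of KLF13 at 87.3, and that of KLF9, the narrowest, at 17.7.

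**Figure D1:**
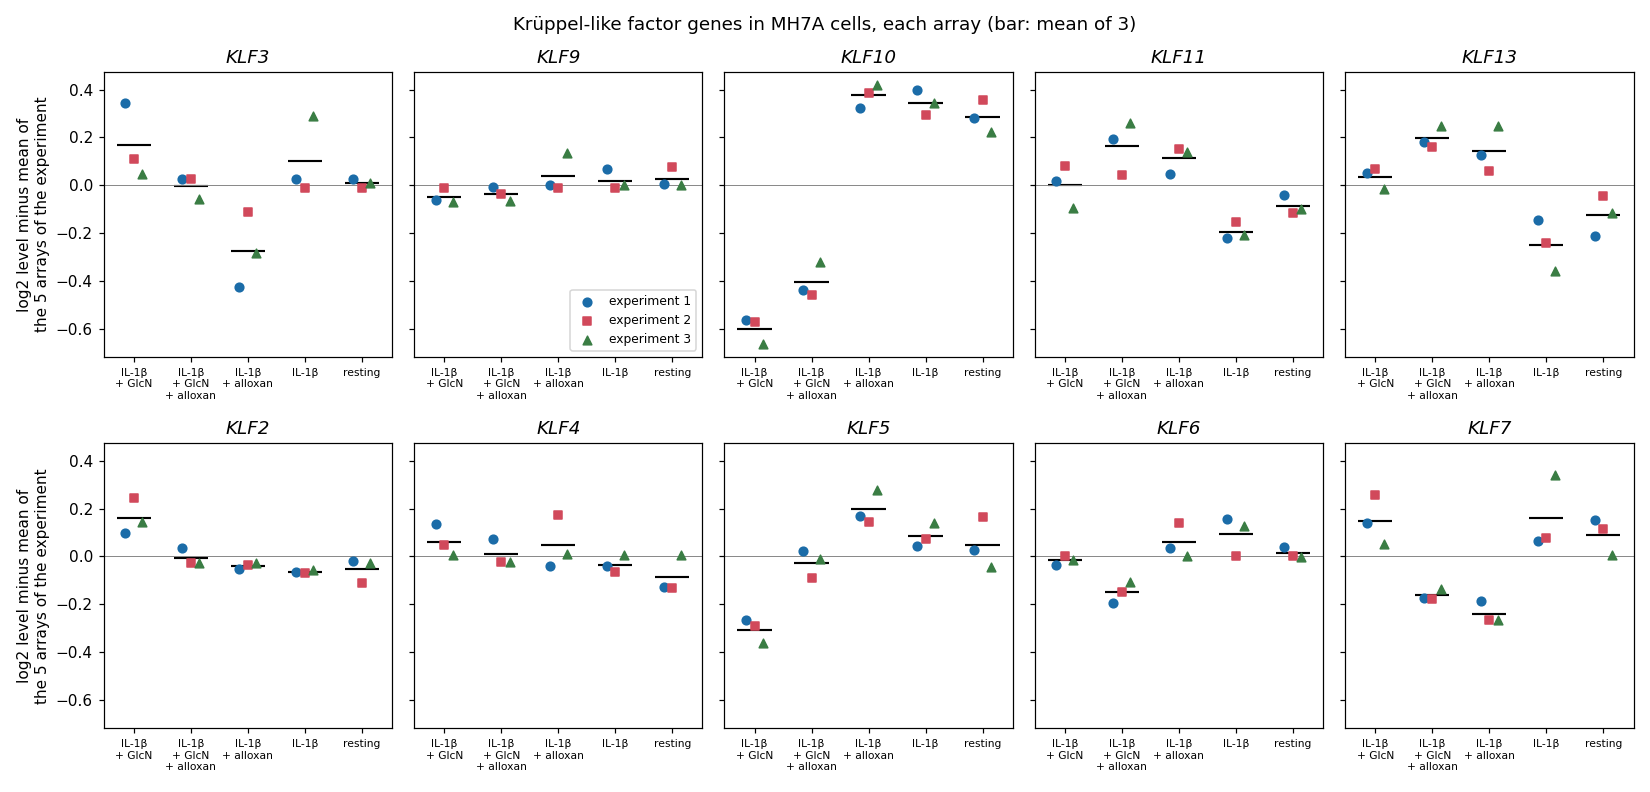
Log2 level of each of the 10 KLF genes on each of the 15 arrays, after subtracting the mean of the 5 arrays of the same experiment, by condition; points are experiments 1 to 3 and bars are means of 3. KLF10 is lowest in both conditions with GlcN, at -0.600 with GlcN and -0.406 with GlcN and alloxan, whereas the other 3 conditions lie between 0.286 and 0.376.

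KLF10 (transcript cluster 8152215, chromosome 8) belongs to the group that recruits SIN3A and is known to relieve the inhibition of TGF-β signalling by repressing SMAD7. Its level was 7.75, 8.55 and 8.49 with GlcN in experiments 1, 2 and 3, against 8.71, 9.41 and 9.50 with IL-1β alone. In every experiment GlcN lay below IL-1β alone by a similar amount, and the centred values of these conditions did not overlap. KLF10 fell by 0.945 ± 0.074 (SD, n = 3) on the log2 scale, to 0.52 of its level with IL-1β alone (adjusted p = 3.24e-06, limma with the experiment as a block).

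In the presence of alloxan the level of KLF10 was again lower with GlcN. It was 7.87, 8.66 and 8.84 with GlcN and alloxan, against 8.63, 9.51 and 9.58 with alloxan alone, a difference of -0.783 ± 0.056 (adjusted p = 2.63e-05). KLF10 was the only member called in this comparison, in which 3.53% of all genes were called, 1.67% lower and 1.86% higher. GlcN with alloxan also lay below IL-1β alone by 0.751 ± 0.086 (log2 fold change -0.751, adjusted p = 8.88e-06). Alloxan alone differed from IL-1β alone by 0.032 ± 0.093 in KLF10, with a 95% interval from -0.092 to 0.155 (adjusted p = 0.811).

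With alloxan added to GlcN, KLF10 differed from GlcN alone by 0.194 ± 0.130, with differences of 0.127, 0.110 and 0.344 in the 3 experiments, and this did not pass (adjusted p = 0.0649). The test of whether the GlcN effect itself differed with alloxan gave 0.162 ± 0.130, with a 95% interval from -0.013 to 0.337 (adjusted p = 0.475). The descending order of KLF10 levels was therefore alloxan, IL-1β alone, resting, GlcN with alloxan, GlcN. The first 3 did not differ beyond their spread. The last 2 differed in the same direction in 3 of 3 experiments (95% interval 0.070 to 0.317), but the difference did not pass after adjustment. Against resting cells KLF10 differed by -0.886 ± 0.042 with GlcN and -0.693 ± 0.138 with GlcN and alloxan, values given without a test.

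The genes with the level pattern most like that of KLF10 over the 15 arrays, by root mean square difference after centring each experiment, were BHLHE40 (0.097), NEDD9 (0.112), DUSP5 (0.120), BCAM (0.121) and MEST (0.131), where the root mean square of KLF10 itself was 0.419. BHLHE40 encodes a transcriptional repressor of the circadian clock and DUSP5 a phosphatase of ERK. For BHLHE40 the log2 fold change was -0.919 with GlcN (adjusted p = 0.000188) and 0.187 with alloxan alone (adjusted p = 0.282). BHLHE40 was picked by its likeness to KLF10 on these same arrays, so that its values are no separate support.

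KLF11 (cluster 8040211, chromosome 2), which resembles KLF10 in its repression domains and was likewise found as a TGF-β-inducible gene, was called in the other direction, in the conditions with alloxan. Its level was 7.81, 8.92 and 9.24 with GlcN and alloxan and 7.67, 9.03 and 9.12 with alloxan alone, against 7.40, 8.72 and 8.77 with IL-1β alone. Every array with alloxan lay above the IL-1β array of its experiment. KLF11 rose by 0.360 ± 0.144 with GlcN and alloxan (1.28-fold, adjusted p = 0.00255) and by 0.307 ± 0.041 with alloxan alone (1.24-fold, adjusted p = 0.00956). Both calls were lost when experiment 1 (adjusted p = 0.0732 and 0.102) or experiment 3 (adjusted p = 0.0559 and 0.0920) was left out. The 2 comparisons share the IL-1β arrays, where KLF11 was -0.109 ± 0.071 from resting cells, lower in 3 of 3 experiments (adjusted p = 0.88). Against resting cells KLF11 differed by 0.251 ± 0.100 with both agents and 0.198 ± 0.097 with alloxan, values given without a test.

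With GlcN alone the level of KLF11 was 7.64, 8.96 and 8.89, and its difference of 0.196 ± 0.070 from IL-1β alone, positive in 3 of 3 experiments, did not pass (adjusted p = 0.0744). Where KLF10 was 0.52 of its IL-1β level with GlcN, KLF11 was thus at 1.15-fold, without a call. GlcN with alloxan differed from alloxan alone by 0.053 ± 0.140 in KLF11 (95% interval -0.088 to 0.194).

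KLF13 (cluster 7982326, chromosome 15), known in T lymphocytes as an activator of the chemokine gene CCL5, was the 1 member called in all 3 comparisons against IL-1β alone. Its level was 6.60, 7.72 and 8.15 with GlcN, 6.73, 7.82 and 8.41 with GlcN and alloxan, and 6.68, 7.72 and 8.42 with alloxan alone, against 6.41, 7.41 and 7.81 with IL-1β alone. All 9 treated arrays were above the IL-1β array of their experiment. KLF13 rose by 0.284 ± 0.077 with GlcN (1.22-fold, adjusted p = 0.0207), by 0.446 ± 0.144 with GlcN and alloxan (1.36-fold, adjusted p = 0.00104) and by 0.393 ± 0.185 with alloxan alone (1.31-fold, adjusted p = 0.00371). These 3 comparisons share the IL-1β arrays, and the IL-1β level of KLF13 was itself -0.124 ± 0.169 from resting cells (adjusted p = 0.869).

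The GlcN call of KLF13 was lost without any one experiment (adjusted p from 0.0791 to 0.187), without the GlcN array of experiment 1 (0.0574) or 2 (0.0924) and without the IL-1β array of experiment 2 (0.0692) or 3 (0.0776). Its alloxan call was lost without experiment 3 (log2 fold change 0.286, adjusted p = 0.0843). The other cluster of KLF13, not used because its mean was lower, differed from IL-1β alone by 0.148 ± 0.282 with GlcN, 0.025 ± 0.069 with both and 0.104 ± 0.133 with alloxan. With the mean of both clusters the values were 0.216, 0.235 and 0.248, each still called. The genes most like KLF13 in pattern were NATD1 (root mean square difference 0.061), RBM24 (0.067), IP6K1 (0.068), CNIH1 (0.070) and FLCN (0.071), against a root mean square of 0.178 for KLF13 itself. Among the members, KLF13 and KLF11 had the most similar patterns, with a root mean square difference of 0.089.

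KLF9 (cluster 8161648, chromosome 9), a gene induced by glucocorticoids and thyroid hormone that completes the SIN3A group, did not pass in any comparison. Its 5 condition means spanned 0.088, and its differences from IL-1β alone were -0.066 ± 0.064 with GlcN, -0.056 ± 0.027 with both and 0.022 ± 0.103 with alloxan. The 95% intervals of these differences ran from -0.173 to 0.130 at their outer ends. Within experiments, 4 of 30 pairs of its arrays had the same value to within 0.0001, as did 16.6% of pairs over all genes tested.

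**Figure D2:**
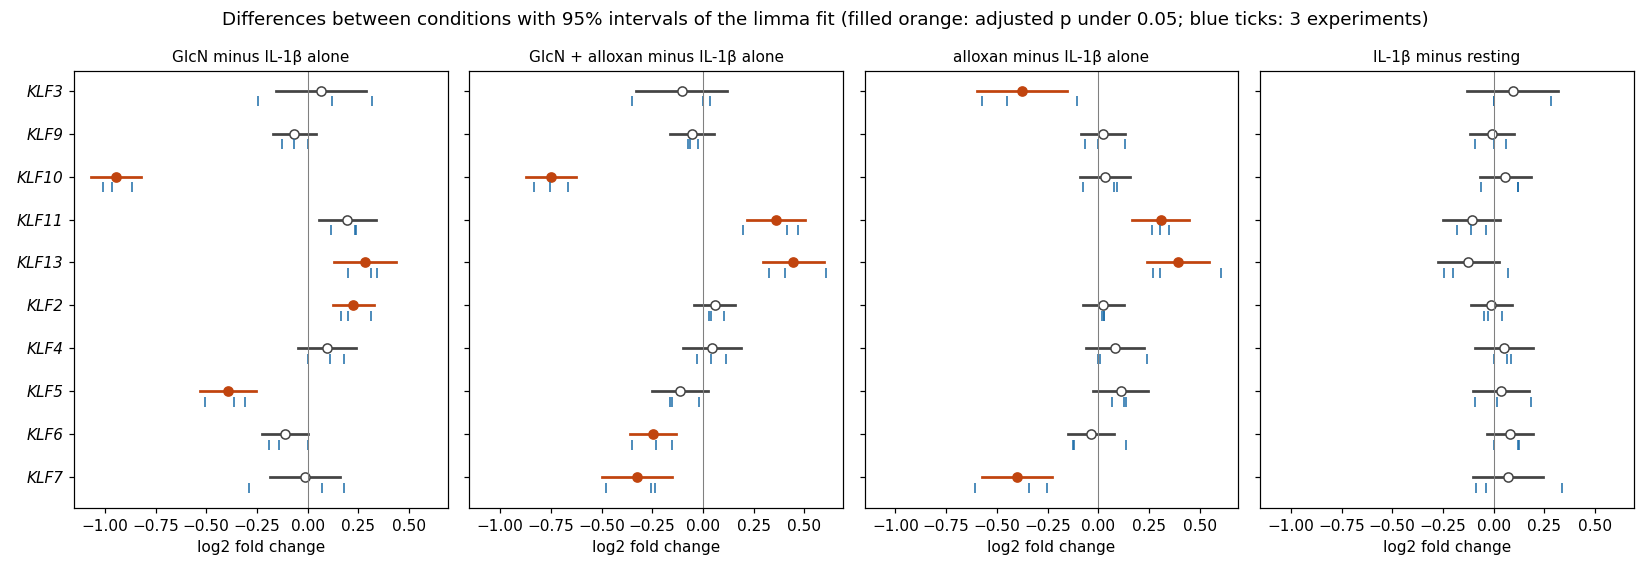
Log2 fold changes of the 10 KLF genes (points) with 95% intervals of the limma fit (lines) and the differences in the 3 experiments (ticks), for GlcN, GlcN with alloxan and alloxan, each minus IL-1β alone, and for IL-1β minus resting cells; filled orange points have an adjusted p under 0.05. KLF10 is at -0.945 and -0.751 in the first 2 panels and at 0.032 with alloxan alone, and no member is filled in the panel for IL-1β.

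Among the activators, KLF5 fell with GlcN. KLF5 (cluster 7969414, chromosome 13) promotes proliferation in intestinal crypts and vascular smooth muscle. Its level was 8.46, 9.79 and 10.09 with GlcN, against 8.77, 10.16 and 10.59 with IL-1β alone, and the centred values did not overlap. The log2 fold change was -0.393 ± 0.100 (0.762-fold, adjusted p = 0.0022), and the call held without each experiment and each array in turn. The centred values of KLF5 with alloxan alone and with IL-1β alone did not overlap either, without a call (0.110 ± 0.036, adjusted p = 0.307).

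KLF5 was also higher with alloxan on top of GlcN than with GlcN alone. Its level was 8.75, 9.99 and 10.44 with GlcN and alloxan, 0.280 ± 0.076 above GlcN alone (1.21-fold, adjusted p = 0.0231), a comparison in which 2 of the 10 members and 6.79% of all genes were called, 3.27% higher and 3.52% lower. That call was lost without any one experiment, at adjusted p from 0.0843 to 0.167, and without the array of both agents of experiment 1 (0.0830) or 3 (0.0910) or the GlcN array of experiment 2 (0.0630) or 3 (0.0956). GlcN with alloxan was -0.222 ± 0.071 from alloxan alone, lower in 3 of 3 experiments and not past the threshold (adjusted p = 0.0853), and -0.112 ± 0.079 from IL-1β alone (adjusted p = 0.282). The difference between the GlcN effects with and without alloxan was 0.170 ± 0.043 for KLF5 (95% interval -0.024 to 0.365, adjusted p = 0.492). KLF5 was matched most closely by ISG20L2 (root mean square difference 0.058), PNP (0.059), APEX2 (0.059), DDX24 (0.061) and NKRF (0.065), against 0.178 for KLF5 itself.

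KLF2 (cluster 8026564, chromosome 19), the flow-responsive factor of endothelium that also keeps T cells quiescent, was the second member that rose with GlcN. Its level was 8.25, 9.28 and 9.83 with GlcN, against 8.08, 8.97 and 9.63 with IL-1β alone. All 3 GlcN arrays were the highest of their experiment. The log2 fold change was 0.225 ± 0.076 (1.17-fold, adjusted p = 0.00861), and the call was lost without experiment 2 (adjusted p = 0.0823) or experiment 3 (adjusted p = 0.0982). With GlcN and alloxan the level of KLF2 was 8.19, 9.01 and 9.66, which was 0.057 ± 0.040 from IL-1β alone (adjusted p = 0.499) and -0.169 ± 0.104 from GlcN alone (adjusted p = 0.0514).

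KLF4 (cluster 8163002, chromosome 9), a reprogramming factor and close relative of KLF2, was dim on these arrays, at percentiles 23.9 to 31.8 of the genes on each. It did not pass in any comparison, and its differences from IL-1β alone were 0.096 ± 0.089 with GlcN, 0.043 ± 0.071 with both and 0.081 ± 0.135 with alloxan. Its level in experiment 3 was the same to within 0.0001 with GlcN, with IL-1β alone and in resting cells.

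KLF6 (cluster 7931810, chromosome 10), known as a growth suppressor that induces the cell cycle inhibitor CDKN1A, was called where GlcN and alloxan were combined. Its level was 7.37, 8.97 and 9.55 with both, against 7.72, 9.12 and 9.79 with IL-1β alone. In each experiment the array with both agents was the lowest. In experiment 2 the level of KLF6 was the same to within 0.0001 with GlcN, with IL-1β alone and in resting cells. KLF6 fell by 0.246 ± 0.099 on the log2 scale (0.843-fold, adjusted p = 0.00707), without a call when experiment 1 (adjusted p = 0.135) or experiment 3 (adjusted p = 0.0795) was left out. The difference between both agents and alloxan alone, -0.209 ± 0.093, did not pass (adjusted p = 0.0531).

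KLF7 (cluster 8058477, chromosome 2), which is known for axon growth in neurons and for restraining adipocyte differentiation, was lower in both conditions with alloxan. Its level was 9.51, 10.52 and 10.66 with GlcN and alloxan, 9.50, 10.44 and 10.54 with alloxan alone and 9.82, 10.96 and 10.86 with GlcN, against 9.75, 10.78 and 11.14 with IL-1β alone. In each experiment the arrays with alloxan were below the other 3. The log2 fold change of KLF7 was -0.401 ± 0.183 with alloxan alone (0.757-fold, adjusted p = 0.00677), -0.325 ± 0.135 with both agents against IL-1β alone (0.799-fold, adjusted p = 0.0142) and -0.313 ± 0.121 with both against GlcN (0.805-fold, adjusted p = 0.0366), and all 3 passed.

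The IL-1β array of experiment 3 was high in KLF7, 0.335 above resting cells, where the other experiments gave -0.087 and -0.037. Without that array the value for both agents against IL-1β alone was -0.212, still called. The alloxan call and the call for both agents against IL-1β were lost without experiment 1 (adjusted p = 0.0648 and 0.0909) or 2 (adjusted p = 0.0716 and 0.0975), and the call against GlcN without any one experiment (adjusted p from 0.0524 to 0.308). The call for both agents against IL-1β was also lost without the array of both agents of experiment 2 (adjusted p = 0.0558). The call against GlcN was lost in 8 of the 15 fits that left out 1 array, at adjusted p up to 0.147: those without any array of both agents, the GlcN array of experiment 1 or 2, the alloxan array of experiment 2 or 3, or the resting array of experiment 2. Against resting cells, KLF7 differed by -0.254 ± 0.096 with both agents and by -0.330 ± 0.055 with alloxan, values given without a test. GlcN alone was -0.012 ± 0.245 from IL-1β alone (adjusted p = 0.962).

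KLF3 (cluster 8094599, chromosome 4), the CtBP-binding repressor, was lower with alloxan alone. Its level was 7.94, 9.22 and 9.26 with alloxan, against 8.39, 9.32 and 9.84 with IL-1β alone, and the log2 fold change was -0.376 ± 0.245 (0.770-fold, adjusted p = 0.0322). The 3 differences, -0.451, -0.103 and -0.575, were unequal, and the call was lost without any one experiment (adjusted p from 0.0816 to 0.269). It was also lost without the IL-1β array of experiment 1 or 3 or the alloxan array of experiment 1 or 3, at adjusted p up to 0.147. The IL-1β array of experiment 3 was 0.283 above resting cells in KLF3. In experiments 1 and 2 these arrays had the same value to within 0.0001. With GlcN and alloxan the level was 8.39, 9.36 and 9.49, a difference of -0.105 ± 0.214 from IL-1β alone (adjusted p = 0.596).

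Counted over the members described here, alloxan alone changed 4 of 10 against IL-1β (2 higher, 2 lower), where 13.3% of all genes were called (6.13% higher, 7.21% lower). GlcN with alloxan changed 5 of 10 (2 higher, 3 lower), where 17.5% of all genes were called (9.06% higher, 8.47% lower). The members' shares lay above those of all genes, over 10 genes and with no test of the difference. The 10 were chosen with earlier results of these data known, so that these shares do not describe the KLF family as a whole. The median log2 fold change of the members was 0.027 with GlcN, -0.080 with both and 0.028 with alloxan, against 0.007, -0.003 and 0.015 over all genes tested, with members on both sides of 0.

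No member was called with IL-1β. The differences of IL-1β alone from resting cells ran from -0.124 in KLF13 to 0.094 in KLF3, none at an unadjusted p under 0.05. In this comparison 0% of all genes were called by limma (977 at an unadjusted p under 0.05), and the methods' t-test gave 2 genes on the deposited values and 6 after quantile normalization at the thresholds of the study, in each case with no member among them and with 0 after Benjamini-Hochberg adjustment.

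**Figure D3:**
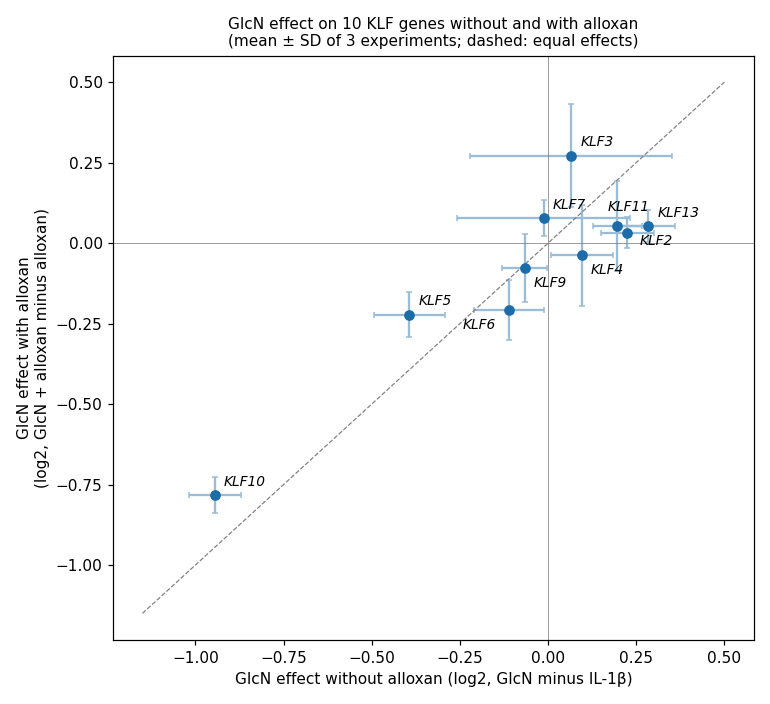
GlcN effect on each of the 10 KLF genes without alloxan (horizontal axis, GlcN minus IL-1β alone) and with alloxan (vertical axis, GlcN with alloxan minus alloxan), as mean log2 difference ± SD of 3 experiments; the dashed line marks equal effects. KLF10 stands apart at -0.945 and -0.783, and KLF5 follows at -0.393 and -0.222.

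Whether alloxan altered the GlcN effect was tested as the difference between the GlcN effect with alloxan and that without, which uses 4 conditions and sets 2 effects against each other that share no array. None of the 10 members was called, where 0.0711% of all genes were, 0.0593% lower and 0.0119% higher. At an unadjusted p under 0.05 there were 2 members, KLF13 (-0.231 ± 0.104, adjusted p = 0.424) and KLF2 (-0.194 ± 0.111, adjusted p = 0.353). At that threshold there were 1860 of all 16872 genes tested.

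Other KLF and SP genes, cofactors and genes of pathways known to act on the family were examined through lists. Against IL-1β alone, 6.62% of all genes tested were lower and 5.29% higher with GlcN. With both agents 8.47% were lower and 9.06% higher, and with alloxan 7.21% were lower and 6.13% higher. The lists are short and were chosen with earlier results of these data known, and no list was tested as a set. Of 15 other KLF and SP genes tested, none was called with GlcN, 2 were lower with alloxan and 1 was lower with both agents. With GlcN 4 of the 15 had an unadjusted p under 0.05 in limma, as did 4183 of all 16872 genes tested. KLF12, a repressor of the AP-2α gene that like KLF3 recruits CtBP, had log2 fold changes of -0.749 ± 0.209 with both agents (adjusted p = 7.61e-05) and -0.501 ± 0.146 with alloxan (adjusted p = 0.00191). With GlcN its value was -0.220 ± 0.164 and did not pass (adjusted p = 0.0995).

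Of 12 corepressors and coactivators, 2 were higher and 2 lower with GlcN, 4 higher with both agents and 1 higher with alloxan. CTBP1, the corepressor that KLF3 and KLF12 bind, rose by 0.366 with GlcN (adjusted p = 0.000179), by 0.426 with both agents (adjusted p = 3.5e-05) and by 0.454 with alloxan (adjusted p = 5.57e-05). The difference of its GlcN effect with alloxan from that without was -0.393 (adjusted p = 0.0320). That call was lost without any one experiment (adjusted p from 0.273 to 0.428) and in 13 of the 15 fits that left out 1 array, the exceptions being the IL-1β array of experiment 3 and the GlcN array of experiment 1. CTBP2 rose by 0.340 with GlcN (adjusted p = 0.00505) and by 0.220 with both (adjusted p = 0.0322), and the acetyltransferase gene CREBBP by 0.311 with both (adjusted p = 0.00791).

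Of 10 TGF-β signalling genes, 2 were lower with GlcN, 2 lower with both agents, and 1 higher and 2 lower with alloxan. The ligand TGFB2 fell in all 3 conditions, with log2 fold changes of -0.792 with GlcN (adjusted p = 0.00333), -1.662 with both (adjusted p = 1.4e-05) and -1.470 with alloxan (adjusted p = 7.03e-05). KLF10 was not called with alloxan alone, and a link between TGFB2 and KLF10 was not tested. SMAD3, which carries the signal to the nucleus, fell by 0.217 with GlcN (adjusted p = 0.0490) and rose by 0.329 with alloxan (adjusted p = 0.00657). For the receptor gene TGFBR2 the values were 0.002 with GlcN (adjusted p = 0.998), -0.205 with both (adjusted p = 0.0297) and -0.211 with alloxan (adjusted p = 0.0325).

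Of 8 ubiquitin ligase genes that act on KLF proteins, SMURF2 was the 1 called, lower by a log2 fold change of -0.446 with GlcN (adjusted p = 0.00879) and -0.551 with both (adjusted p = 0.00162). Of 10 genes that induce KLF2 and KLF4, 1 was higher with GlcN and 2 with both and with alloxan. MEF2A rose by 0.275 with GlcN (adjusted p = 0.0269), and the kinase gene MAP3K3 rose by 0.320 with both (adjusted p = 0.00191).

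Of 10 glucocorticoid and circadian genes tested, 1 was higher and 1 lower with GlcN, 4 were higher and 1 lower with both, and 2 were higher with alloxan. TSC22D3, the glucocorticoid-induced leucine zipper gene, rose by 0.594 with GlcN (adjusted p = 0.000856). KLF9 was not called, and a link between these genes was not tested. The clock gene PER1 rose by 0.292 with both (adjusted p = 0.00325) and by 0.314 with alloxan (adjusted p = 0.00332).

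Of 5 cell cycle targets of KLF4 and KLF6, 3 were lower with GlcN, 1 higher and 2 lower with both, and 1 higher and 1 lower with alloxan. KLF4 was not called in any of these conditions and KLF6 only with both agents, and a link to these genes was not tested. CDKN1A, the gene of the inhibitor p21, fell by 0.364 with GlcN (adjusted p = 0.00608), rose by 0.220 with both (adjusted p = 0.0498) and rose by 0.884 with alloxan (adjusted p = 3.17e-05). CCND1, the gene of cyclin D1, had log2 fold changes of -0.837 with GlcN (adjusted p = 0.00341), -0.683 with both (adjusted p = 0.00673) and 0.006 with alloxan (adjusted p = 1.0). CCNB1, the gene of a mitotic cyclin, had log2 fold changes of -0.247 with both (adjusted p = 0.0118) and -0.240 with alloxan (adjusted p = 0.0186).

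Some calls of these listed genes were fragile. In fits that left out 1 array, SMAD3 with GlcN was lost in 12 of 15, CDKN1A with both agents in 11, MEF2A with GlcN in 3, and CTBP2 with both agents and TGFBR2 with both and with alloxan in 5 each. CCNB1 was lost in 2 with both agents and in 3 with alloxan, and SMURF2 with GlcN in 1. Leaving out 1 experiment also lost calls. In 3 of 3 such fits these were MEF2A with GlcN, CTBP2 and CDKN1A with both agents, and TGFBR2 with alloxan. In 2 of 3 they were TGFB2, CDKN1A, SMURF2 and SMAD3 with GlcN. Also lost in 2 of 3 were CCND1, CREBBP, PER1, TGFBR2 and CCNB1 with both agents, and SMAD3 and CCNB1 with alloxan. In 1 of 3 they were CCND1 and CTBP2 with GlcN, MAP3K3 with both agents, and KLF12 and PER1 with alloxan. Without the block, on the deposited values, every named call was lost. Blocked fits of only the conditions compared kept only CTBP1 with both agents (adjusted p = 0.0495).

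The fibroblast markers moved in the same comparisons. Of 9 tested, 4 were lower with GlcN, 5 with both agents and 4 with alloxan, among them COL1A1 at log2 fold changes of -0.465, -0.904 and -0.682. The mean of the 10 measured, centred within experiments, ran from -0.161 to 0.011 with GlcN, -0.266 to -0.127 with both and -0.101 to -0.010 with alloxan, against 0.145 to 0.260 with IL-1β alone. Of 4 endothelial markers, all below the median gene on every array, 3 were lower with both agents, and of 4 epithelial ones 1 was lower in each of the 3 conditions. None of 4 macrophage and 3 T cell markers was called in these. The part of these changes in the KLF values was not tested.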

How the data were processed

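Total RNA of MH7A cells was hybridised to 15 arrays, 3 per condition. The authors deposited log2 values made with RMA in Affymetrix Expression Console, whose versions the sources do not give. RMA corrects background and normalizes; these steps were kept. Detection calls were not used, and precision is limited by the number of arrays.

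Groups and experiment numbers came from the labels. Of 33297 clusters, 19460 carried 1 symbol (1754 several, 12083 no listed symbol), and 19429 took their name from RefSeq (GRCh38.p14) by gene ID. Genes at or above the 20th percentile of their array on at least 3 arrays were tested. limma 3.58.1 in R 4.3.3 was fitted to 5 group means over all arrays with the experiment as a block, two-sided, with Benjamini-Hochberg adjustment. The block was used because values compare only within an experiment. Deviations from the group means correlated at 0.664 to 0.849 between arrays with the same number (30 pairs) and at -0.625 to -0.128 otherwise (60 pairs). The deviations of a group cancel out, so the negative values follow from the positive ones and are no separate support. The study's t-test was unpaired, on values further normalized in a way its text does not describe. That step was not repeated, so the methods' t-test given here, on deposited or quantile-normalized values, is not the study's own result. The blocked fit had 8 residual and 11.1 total degrees of freedom. Figures were drawn with matplotlib 3.10.9.

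The members and lists were chosen with earlier results of these data known. Named genes were the 10 members, up to 3 of each list with the smallest p among those called with GlcN or with GlcN and alloxan against IL-1β, and the 5 genes most like each of the 3 members with the widest range. Alternatives were no filter, a 50th percentile filter, the mean over clusters, quantile normalization, an intensity trend with robust moderation, no block, a fit of only the groups compared, the methods' t-test, and leaving out each experiment or array. No block together with quantile normalization, and the t-test after it, were added after seeing the data. The methods say that the experiments were repeated. In the blocked fit the levels of the experiments are removed. Its p-values measure how differences between conditions varied across repeated experiments on 1 cell line, pooled over the 5 conditions.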

Additional observations from a re-analysis of the deposited data

Results flagged for a closer look

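KLF2 was picked out because alloxan went in opposite directions in the absence and in the presence of GlcN in every experiment. Alloxan alone minus IL-1β alone was 0.016, 0.030 and 0.029 in the 3 experiments, and GlcN with alloxan minus GlcN was -0.064, -0.271 and -0.171. The difference between these effects was -0.194 on the log2 scale with a 95% interval from -0.336 to -0.051, and it did not pass after adjustment over all genes (adjusted p = 0.353, limma with the experiment as a block). The first 3 values are small beside the SD of 0.104 of the second 3.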

How the results depend on the processing

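The 16 called values of the members kept their direction in every alternative. All 16 stayed called under 5 other processing choices (no filter, a 50th percentile filter, the mean over clusters, quantile normalization, an intensity trend). On the deposited values, without the replicate block 0 members were called in every comparison and 0 had an unadjusted p under 0.05, and the methods' t-test gave 0 at the study's thresholds and 0 after adjustment. The study's further normalization was not part of that test. After quantile normalization, chosen after seeing the data, limma with no replicate block called 1 member with GlcN and 1 with both agents against IL-1β, KLF10 in each, and 0 in the other comparisons. The t-test then gave 1 member at the study's thresholds with GlcN, 1 with both agents against IL-1β and 1 against alloxan, and 0 otherwise and after adjustment. With only the groups compared in the blocked fit the count was 1 for GlcN with alloxan against IL-1β (KLF10, adjusted p = 0.0495) and 0 otherwise; with fewer arrays it has fewer degrees of freedom. KLF10 with GlcN had an adjusted p of 0.0620 there and 1.0 without the block. Over all genes, the fit without the block called 4 with GlcN (3 higher, 1 lower; 2010 with the block), 1 with both agents (2958) and 0 with alloxan (2250), and only the groups compared gave 1, 276 and 0. For both agents against GlcN (1145) and against alloxan (595) both fits called 0. With quantile normalization and no block the counts were 328 with GlcN (190 higher, 138 lower), 635 with both agents and 267 with alloxan. At the study's thresholds the t-test called 25 genes higher and 22 lower with GlcN on the deposited values (0 after adjustment), and 163 higher and 134 lower after quantile normalization (3 after adjustment). For both agents against alloxan the member count was 2 with the 50th percentile filter and 2 with quantile normalization, against 1. For the interaction, quantile normalization gave 7 genes higher and 16 lower, against 2 and 10, and the 50th percentile filter 19 in all, against 12.

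Leaving out 1 experiment or 1 array gave 2 to 5 members called with GlcN, 1 to 4 with alloxan, 2 to 5 with both agents against IL-1β, 0 to 2 against GlcN and 1 to 2 against alloxan, and 0 for IL-1β and for the interaction. Over all genes, leaving out 1 experiment gave 675 to 912 calls with GlcN, 761 to 885 with alloxan and 1373 to 1655 with both agents, 157 to 427 for both agents against GlcN (20 higher and 137 lower without experiment 3), 97 to 151 against alloxan and 0 for the interaction. Quantile normalization gave 455 higher and 734 lower for both agents against GlcN. With both agents against IL-1β, lower calls outnumbered higher ones without each experiment. Of the 16 values, 5 held without each experiment and 11 without each array. The 3 calls of KLF10, the GlcN call of KLF5 and the call of KLF13 with both agents held in all of these. With 3 arrays a condition, differences of the size seen in KLF4 and KLF9 cannot be told from none.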
